A study of Mus musculus with 2 samples.

Results

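Olfm2, Slc45a4, Bmx, Dkk2, Atp13a3, Stk32a, Plac8 and Htra1 are 8 genes of the arterial lining of the lung, 8 of the 32286 features in the deposited matrices. They were chosen by name for their levels in arterial endothelial cells and for how these differ between the libraries, so their levels and ratios are given as a description and no test is drawn from them. All 8 symbols were found, each in 1 row, and all 8 passed the filter on low values, 50 CPM in at least 1 library in a given arterial class. Olfm2 and Slc45a4 passed it only through aWT, and Dkk2 passed it in arteriole-like cells only through aKO. The levels bore out the arterial label for 7 of the 8 genes in aWT, where each was higher in both arterial classes than in every other blood endothelial class. Plac8 was the exception, with more in venous-like than in large artery-like cells.

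The study sequenced single cells of adult mouse lung that carried the red protein tdTomato switched on by VE-cadherin-cre, in which the promoter of an endothelial junction gene drives the recombinase, and that were sorted for it. There were 2 libraries from C57BL/6J mice of 10-12 weeks, 1 labelled aWT and 1 labelled aKO. The animals model hereditary hemorrhagic telangiectasia 2, per the series title, which in people comes from mutations of the BMP receptor gene ACVRL1 (ALK1). The labels spell out neither the gene deleted in aKO nor the number of animals, their sex or the time since recombination. A promoter active in all endothelium marks arteries, veins, capillaries and lymphatics alike, and cells that escaped recombination in the target gene can still be red. With 1 library a group there is no replicate error, no difference between aWT and aKO was tested, and intervals cover counting error only.

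Arteries, arterioles and capillaries of the lung are lined by endothelial cells of distinct programmes. Arterial identity is set by Notch signalling and SOX factors and is supported by blood flow and by BMP9 and BMP10 acting through ALK1 and SMAD transcription factors. Large pulmonary arteries carry an elastic matrix with Mgp and Eln, and arterioles pass into the capillary bed. The 8 genes hold different jobs in these cells. Olfm2, Dkk2 and Htra1 encode secreted proteins, Bmx and Stk32a encode kinases, Slc45a4 and Atp13a3 encode membrane transporters, and Plac8 encodes a small cysteine-rich protein.

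RefSeq promoter windows (GRCm38.p6) were found for 5 of the 8 genes. The 250 bases before the start site are shown for the gene with the lowest log2 ratio of aKO over aWT in arteriole-like cells after 5 CPM were added to both levels (without that, Slc45a4 is lower), for the X-linked kinase and for the gene with the highest ratio. Capitals mark matches on either strand to 5 motifs: GGCGCC, a GC-rich element that SMAD proteins can bind, CANNTG (the E-box, read by helix-loop-helix factors), TGGGAA (a core of the Notch factor RBPJ), ATTGT (a core of SOX factors) and TATAAA (the TATA box). Olfm2 has 3 such windows, of which the one farthest upstream is shown; of these 3 only the one farthest downstream holds GGCGCC, at -8 from its start site. No 2 matches overlap in the windows printed.
Olfm2, chr9:20746297-20746546, minus strand: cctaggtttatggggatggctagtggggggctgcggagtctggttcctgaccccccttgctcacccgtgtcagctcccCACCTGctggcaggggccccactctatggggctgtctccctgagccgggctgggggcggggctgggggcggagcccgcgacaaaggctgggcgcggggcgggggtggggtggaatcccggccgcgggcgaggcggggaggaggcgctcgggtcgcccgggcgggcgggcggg
Bmx, chrX:164258194-164258443, minus strand: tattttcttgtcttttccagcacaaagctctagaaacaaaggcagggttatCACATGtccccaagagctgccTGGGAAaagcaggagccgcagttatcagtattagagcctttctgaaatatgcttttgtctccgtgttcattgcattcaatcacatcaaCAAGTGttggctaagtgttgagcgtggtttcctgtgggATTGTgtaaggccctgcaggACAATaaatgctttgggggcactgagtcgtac
Dkk2, chr3:132085042-132085291, plus strand: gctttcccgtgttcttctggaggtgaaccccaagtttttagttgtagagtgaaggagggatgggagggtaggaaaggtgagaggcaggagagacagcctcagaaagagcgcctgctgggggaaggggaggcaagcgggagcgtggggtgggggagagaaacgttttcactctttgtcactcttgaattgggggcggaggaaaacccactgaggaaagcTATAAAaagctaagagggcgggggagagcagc

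The Olfm2 window is 76.0% G and C, against a median of 52.4% over 32817 mouse promoter windows of this length, and holds 1 E-box, at -172 from the start site. The Bmx window is 45.6% G and C and holds 2 E-boxes, at -199 and -90, 1 RBPJ core at -178 and 2 SOX cores, at -52 and -32. The Dkk2 window is 55.6% G and C and holds only a TATA box, at -32. These matches are common: 66.2% of all windows hold an E-box, 27.7% a SOX core, 21.6% an RBPJ core, 12.4% a TATA box and 9.59% the GC-rich element. A match describes the letters and is neither a bound site nor a cause of any level below.

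On GRCm38 (mm10, GENCODE M21) the genes lie on 8 chromosomes and do not neighbour each other. Olfm2 (ENSMUSG00000032172) spans chr9:20667690-20746349 on the minus strand and Slc45a4 (ENSMUSG00000079020) spans chr15:73577424-73645762 on the minus strand. Bmx (ENSMUSG00000031377) lies on the X chromosome at chrX:164192842-164258193, minus strand, and Dkk2 (ENSMUSG00000028031) at chr3:132085292-132180304, plus strand. Atp13a3 (ENSMUSG00000022533) spans chr16:30312423-30405975, minus strand. Stk32a (ENSMUSG00000039954) lies on chromosome 18, plus strand. Plac8 (ENSMUSG00000029322) spans chr5:100553725-100572245, minus strand, and Htra1 (ENSMUSG00000006205) chr7:130936111-130985660, plus strand. All are whole-gene spans with exons, introns and UTRs, and a 3' count does not show which start site was used.

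Each cell was placed in a class by its UMIs (unique molecular identifiers, each counting 1 captured transcript) of marker genes that include none of the 8. This gave 1329 arteriole-like and 422 large artery-like cells in aWT, and 727 and 552 in aKO. Libraries held 72270260 UMIs (aWT) and 75950364 UMIs (aKO) in all, 48 cell barcodes occurred in both, and cells were deeper in aKO: the median was 4154 against 7513 UMIs in arteriole-like and 6052 against 9791.5 in large artery-like cells. The large artery marker Mgp followed the split in both libraries. It stood at 642 CPM (UMIs scaled to a class total of 1000000) in arteriole-like and 8638 CPM in large artery-like cells of aWT, and 417 and 5375 CPM in aKO. The 7 arteriole markers followed it only in aWT, summing to 3827 CPM in arteriole-like and 1598 CPM in large artery-like cells. In aKO they summed to 958 and 1190 CPM, so higher arteriole markers do not set apart the arteriole-like class there. Shared arterial markers were themselves lower in aKO: the 7 summed to 5311 CPM in aWT against 1510.5 CPM in aKO arteriole-like cells, and Cxcl12 stood at 2066 and 303 CPM. Cells that fitted no class clearly made up 9.57% of aWT and 20.6% of aKO, and in aKO they held much of some of the 8 genes, with Atp13a3 at 457 CPM, Plac8 at 290.5 CPM and Stk32a at 174 CPM. Clusters made without the 8 genes split arteriole-like cells by library: 835 of the aWT cells lay in a cluster of 1015 aWT and 11 aKO cells, and 618 of the aKO cells in one of 8 and 1327, so cluster and library cannot be told apart there. General capillary markers were not low in arteriole-like cells, summing to 6468 CPM in aWT and 3137 CPM in aKO. General capillary-like cells held 13024 and 8001 CPM of them. Venous markers summed to 2324 and 852 CPM in arteriole-like cells. Up to 295 aWT and 21 aKO arteriole-like cells lay in a single cluster named general capillary. Leaving out arterial cells with markers of other classes kept 753 of 1329 aWT and 659 of 727 aKO arteriole-like cells. Fibroblast markers summed to 28.8 CPM in aWT against 6.79 CPM in aKO arteriole-like cells, and blood markers to 44.5 and 4.37 CPM. In aKO arteriole-like cells the fibroblast markers Col1a1, Lum and Pdgfra and the blood markers Ptprc and Cd3e were at 0. Alveolar epithelial markers summed to 193 CPM in aWT but 17.6 CPM in aKO arteriole-like cells, and to 125 against 11.7 CPM in large artery-like cells. Fibroblast markers summed to 266 and 361 CPM in large artery-like cells. Markers of proliferating cells summed to 9.28 and 88.9 CPM in arteriole-like cells and to 47.3 and 339 CPM in venous-like cells. Smooth muscle and pericyte markers lay between 70.8 and 133 CPM in all 4 of these groups, and the part of any of these markers in the levels below was not tested.

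Arteriole-like cells held 3.58 CPM of Xist, the RNA of the inactive X chromosome, in aWT against 693 CPM in aKO, and the Y-linked Ddx3y at 108 and 0.16 CPM. Sex and group therefore cannot be told apart for any gene here. Acvrl1, the gene of the disorder in the title, stood at 860.4 and 529.5 CPM in arteriole-like cells and at 296 and 476 CPM in large artery-like cells, a 3' count that need not report a deletion of part of the gene. Id1, a gene switched on by BMP signalling, stood at 1305 and 133 CPM in arteriole-like cells.

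**Figure D1:**
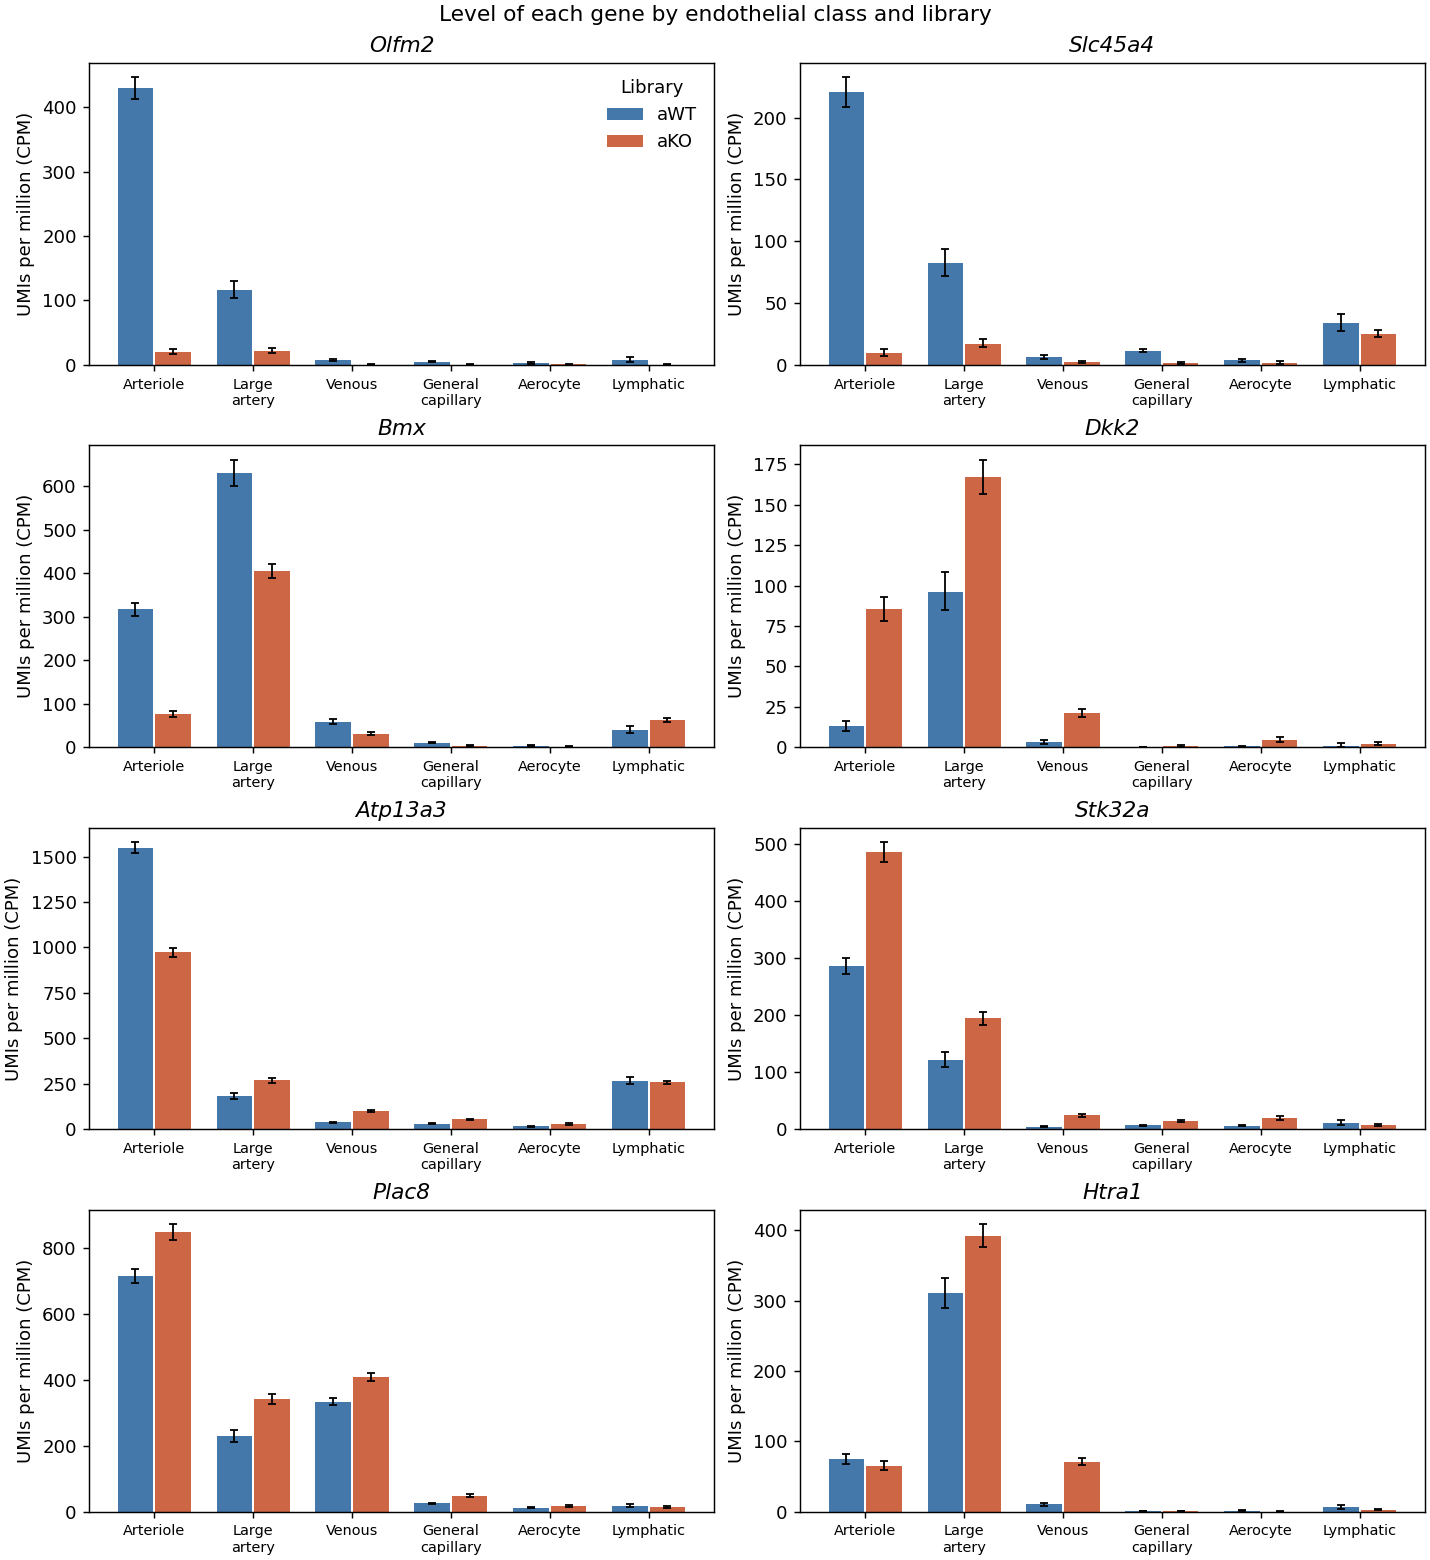
Level of each gene, in CPM (linear axis from 0, a scale of its own for each gene), in 6 endothelial classes of the aWT (blue) and aKO (orange) libraries; bars are 1 library each and error bars are exact Poisson 95% intervals. Olfm2 and Slc45a4 have tall aWT and short aKO bars in arteriole-like cells, Dkk2 the reverse, and Stk32a, Plac8 and Htra1 have bars of closer height.

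Of the secreted proteins, Olfm2, an olfactomedin-family glycoprotein, had the lowest log2 ratio of aKO over aWT. In aWT it stood at 429.6 CPM (95% interval 413 to 446, 2638 UMIs) in arteriole-like cells and 117 CPM (104 to 130) in large artery-like cells. The other 4 classes held at most 7.72 CPM, and of these the lymphatic-like and venous-like intervals overlapped, as did those of venous-like and general capillary-like cells. In aKO, arteriole-like cells held 20.7 CPM (17.3 to 24.6, 128 UMIs) and large artery-like cells 22.1 CPM (18.5 to 26.2), while the other 4 classes held 0.21 to 0.59 CPM. The aKO level was thus 20.8-fold lower in arteriole-like cells (counting interval 17.4 to 24.98) and 5.28-fold lower in large artery-like cells (4.30 to 6.52). The aWT excess of arterioles over large arteries, 3.68-fold, had no counterpart in aKO, where the 2 arterial intervals overlapped and their ratio was 1.07 (0.83 to 1.37). The size of the aWT excess moved with the setting, from 384 against 177 CPM in thinned cells to 589 against 39.0 CPM with classes from clusters. What Olfm2 was left in aKO was still arterial, at 21.4 CPM in all arterial cells against 0.36 CPM in the rest of the endothelium.

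The remaining aKO signal sat in few cells. Of 1279 aKO arterial cells, 19 held at least 3 Olfm2 UMIs and these 19 held 53.5% of all Olfm2 UMIs of the group. In aWT 437 of 1751 arterial cells held at least 3, and they held 82.9% of its Olfm2 UMIs. The other 46.5% in aKO lay in 98 cells with 1 or 2 Olfm2 UMIs. The 19 cells were deep, with a median of 19159 UMIs against 8093 UMIs in aKO arterial cells without Olfm2, and cells picked for a UMI count are deep in part by construction. They held 833 CPM of Id1 (742 to 933) against 168 CPM (160 to 176) in aKO arterial cells without Olfm2, and Smad6, an inhibitory SMAD, stood at 844 against 199.6 CPM. Hey1 was at 122 against 34.4 CPM. Slc45a4 did not follow, at 16.6 CPM (6.10 to 36.2) against 13.3 CPM (11.2 to 15.7). The 98 aKO cells with 1 or 2 Olfm2 UMIs stood between, at 247 CPM of Id1, 337 CPM of Smad6 and 72.8 CPM of Hey1. Of the 19 cells, 18 held Xist UMIs and their Ddx3y count was 0, so they carried the sex marks of the aKO library. They held 24.9 CPM of tdTomato (11.4 to 47.3) against 70.0 CPM (65.1 to 75.2). Without these cells, an alternative chosen once the values were known, the aKO level was 10.4 CPM in arteriole-like and 10.1 CPM in large artery-like cells.

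Dkk2, which binds the Wnt co-receptors LRP5 and LRP6 and tunes Wnt signalling, ran the other way. It was a large artery gene in aWT, at 96.0 CPM (84.8 to 108) there and 12.9 CPM (10.2 to 16.0) in arteriole-like cells, with 0.15 to 3.17 CPM in the other 4 classes. In aKO it stood at 167 CPM (157 to 178) in large artery-like and at 85.2 CPM (78.1 to 92.8) in arteriole-like cells, with 21.1 CPM (18.6 to 23.9) in venous-like and 0.70 to 4.42 CPM in the other 3 classes. The aKO venous-like level rests on 255 UMIs in 26 of 1115 cells, 120 of them in 1 cell. In aWT arteriole-like cells 79 UMIs lay in 27 of 1329 cells, 32 of them in 1 cell. The intervals do not cover such unevenness between cells. The aKO level was 6.62-fold higher in arteriole-like cells (5.22 to 8.50) and 1.74-fold higher in large artery-like cells (1.52 to 2.00), so the excess of large artery over arteriole was 7.46-fold in aWT and 1.96-fold in aKO. When arterial cells with markers of other classes were left out, the large artery-like levels were 55.9 and 191.5 CPM, past 2-fold. In terms of cells, 1.18% of aWT and 9.87% of aKO arteriole-like cells held a Dkk2 UMI once each cell was thinned to 2000 UMIs. General capillary-like cells, which should lack it, held a UMI in 0.051% and 0.17%.

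Htra1, a secreted serine protease that cleaves matrix and TGF-beta pathway proteins and whose loss causes a human small vessel disease of the brain, was also highest in large artery-like cells in both libraries. It stood at 311 CPM (290.3 to 332) there and 75.1 CPM (68.4 to 82.2) in arteriole-like cells of aWT, and at 392 CPM (377 to 409) and 65.5 CPM (59.3 to 72.2) in aKO. The arterial aKO to aWT ratios were small, 1.26 in large artery-like cells (1.17 to 1.37) and 0.87 in arteriole-like cells (0.76 to 1.00). In arteriole-like cells the direction depended on the setting: 71.4 CPM in aWT against 85.7 CPM in aKO when cells were thinned. Venous-like cells differed more, at 10.5 CPM (8.50 to 12.8) in aWT and 70.8 CPM (66.2 to 75.7) in aKO, 6.75-fold higher (5.46 to 8.42). Htra1 in that class stood mostly in a cluster led by Fabp4, Col3a1 and Selp, at 63.1 CPM in 269 aWT cells and 239.9 CPM in 450 aKO cells. Venous-like cells of aKO also held more fibroblast marker UMIs, 121 against 25.8 CPM, and the part of these cells in the Htra1 difference was not tested.

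The kinase Bmx, a Tec-family cytoplasmic tyrosine kinase long used as an arterial endothelial marker, was lower in aKO mainly in the smaller vessels. In aWT it stood at 631 CPM (601 to 661) in large artery-like cells, 317 CPM (303 to 331) in arteriole-like cells and 58.9 CPM in venous-like cells. In aKO these classes held 405 CPM (389 to 421), 76.0 CPM (69.3 to 83.2) and 31.4 CPM (28.3 to 34.7). Arteriole-like cells were 4.17-fold lower (3.76 to 4.62) and large artery-like cells 1.56-fold lower (1.46 to 1.66). The excess of large artery over arteriole was therefore 1.99-fold in aWT and 5.33-fold in aKO. Lymphatic-like cells as a class went the other way, at 39.9 CPM (33.1 to 47.8) in aWT and 63.0 CPM (58.9 to 67.4) in aKO. In the lymphatic cluster led by Mrc1, Bmx stood at 29.2 CPM in 390 aWT cells and 30.1 CPM in 970 aKO cells. In the one led by Lcn2 it stood at 103 CPM in 147 aWT cells and 108 CPM in 758 aKO cells. The part of this mix of clusters in the class difference was not tested. Bmx is X-linked and the libraries differ in sex marks, and the part of sex in its ratio was not tested. The 124 X-linked genes other than Bmx and Xist measured in arteriole-like cells had a median log2 ratio of 0.03. Of them 1 was at least 2-fold lower, with 5.05% of all genes measured there. A median over other genes does not show what sex does to Bmx.

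Stk32a, a serine/threonine kinase whose role in endothelium is little described, was an arteriole gene in both libraries. It stood at 286 CPM (273 to 300) in arteriole-like and 122 CPM (109 to 136) in large artery-like cells of aWT, and at 486 CPM (469 to 504) and 194 CPM (183 to 206) in aKO. The aKO level was 1.70-fold higher in arteriole-like (1.60 to 1.80) and 1.60-fold higher in large artery-like cells (1.41 to 1.81). Its excess of arteriole over large artery was 2.35-fold in aWT and 2.50-fold in aKO, but thinned cells of aWT held 249.6 and 158 CPM and those of aKO 546 and 231 CPM. Giving each cell equal weight took the arteriole levels to 277 and 564 CPM.

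Slc45a4, a membrane transporter of the SLC45 family, followed Olfm2. In aWT it stood at 220.3 CPM (209 to 232, 1353 UMIs) in arteriole-like, 82.0 CPM (71.7 to 93.3) in large artery-like and 33.9 CPM (27.6 to 41.2) in lymphatic-like cells, with 3.67 to 11.6 CPM in the other 3 classes. In aKO the arteriole-like level was 9.70 CPM (7.40 to 12.5, 60 UMIs) and the large artery-like level 17.3 CPM (14.1 to 20.9), 22.7-fold (17.5 to 29.9) and 4.75-fold lower (3.75 to 6.06). Lymphatic-like cells held 25.001 CPM (22.4 to 27.8), the highest level of any class in aKO. The arterial excess over the rest of the endothelium was 17.7-fold in aWT and 1.59-fold in aKO. That rest includes lymphatic-like cells, 619 of its 11499 cells in aWT and 1951 of 6729 in aKO. They held 101 of its 517 Slc45a4 UMIs in aWT and 343 of 397 in aKO. In aKO the venous-like, general capillary-like and aerocyte-like classes held 1.25 to 2.07 CPM, against 13.4 CPM in all arterial cells.

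Atp13a3, a P5-type ATPase that takes up polyamines and whose variants occur in human heritable pulmonary arterial hypertension, was abundant in arterioles of both libraries. Arteriole-like cells held 1548 CPM (1517 to 1579.5, 9507 UMIs) in aWT against 973 CPM (948 to 998, 6017 UMIs) in aKO, 1.59-fold lower (1.54 to 1.64). Large artery-like cells held 182 CPM (166 to 199) and 269 CPM (256 to 283), 1.48-fold higher in aKO (1.34 to 1.64). Lymphatic-like cells stood at 268 CPM (249.8 to 287) and 258 CPM (250.03 to 267), above the aWT large arteries. Venous-like cells were 2.56-fold higher in aKO (2.27 to 2.89), at 39.0 and 99.9 CPM. Without Vcam1 among the venous markers, likewise an alternative chosen after seeing the data, the arteriole-like class of aKO grew from 727 to 830 cells and the venous-like levels were 37.0 and 68.6 CPM. In thinned cells they were 41.4 and 184.7 CPM.

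Plac8, a small cysteine-rich protein studied mostly in leukocytes and placenta, had the ratio nearest 1 in all arterial cells together, 1.06 (1.02 to 1.10). This pooled ratio lies below both class ratios, 1.19 in arteriole-like and 1.49 in large artery-like cells. Large artery-like cells were 422 of 1751 arterial cells in aWT and 552 of 1279 in aKO. Within each class the Htra1 ratio was nearer 1. Arteriole-like cells held 716 CPM (695 to 738) in aWT and 849 CPM (826 to 872) in aKO, and large artery-like cells 229 CPM (212 to 248) and 341 CPM (326 to 356). Venous-like cells held 334 CPM (323 to 346) and 409 CPM (397 to 420), above the large arteries in both libraries. With classes taken from clusters the arteriole levels were 872 and 803 CPM, so no direction can be given for arterioles.

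Size was read by a rule, a ratio of at least 2 after adding 5 CPM among genes with 50 CPM in 1 of the groups compared. Against all other endothelial cells of its own library, the arterial level met it upward for 7 of the 8 genes in aWT (5.56% of all genes) and for 6 in aKO (4.48%). Dkk2 in aWT and Olfm2 and Slc45a4 in aKO lay under the 50 CPM minimum, and Slc45a4 was also under 2-fold. Between the libraries, 3 of the 8 genes were lower in aKO arteriole-like cells (Olfm2, Slc45a4 and Bmx) and 1 was higher (Dkk2). Of all 4452 genes measured there, 5.05% were lower and 5.30% were higher. In large artery-like cells Olfm2 and Slc45a4 were lower and none of the 8 was higher, with 2.59% and 1.82% of 4291 genes. In venous-like cells Atp13a3 and Htra1 were higher, with 5.15% of 4544 genes. The genes were picked for such ratios, so the counts are not set against these shares. On the log2 scale Olfm2 stood at -4.08, the 4th lowest ratio of the 4452, Slc45a4 at -3.94 (6th lowest), Bmx at -1.99 (64th lowest) and Dkk2 at 2.34 (38th highest). The median over the 8 was -0.43 in arteriole-like and 0.44 in large artery-like cells, where the medians of all genes were 0.02 and 0.01. With classes from clusters, Olfm2 in large artery-like cells stood at 39.0 and 15.3 CPM, a log2 ratio of -1.12, and lost its call because both levels lay under the 50 CPM minimum.

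**Figure D2:**
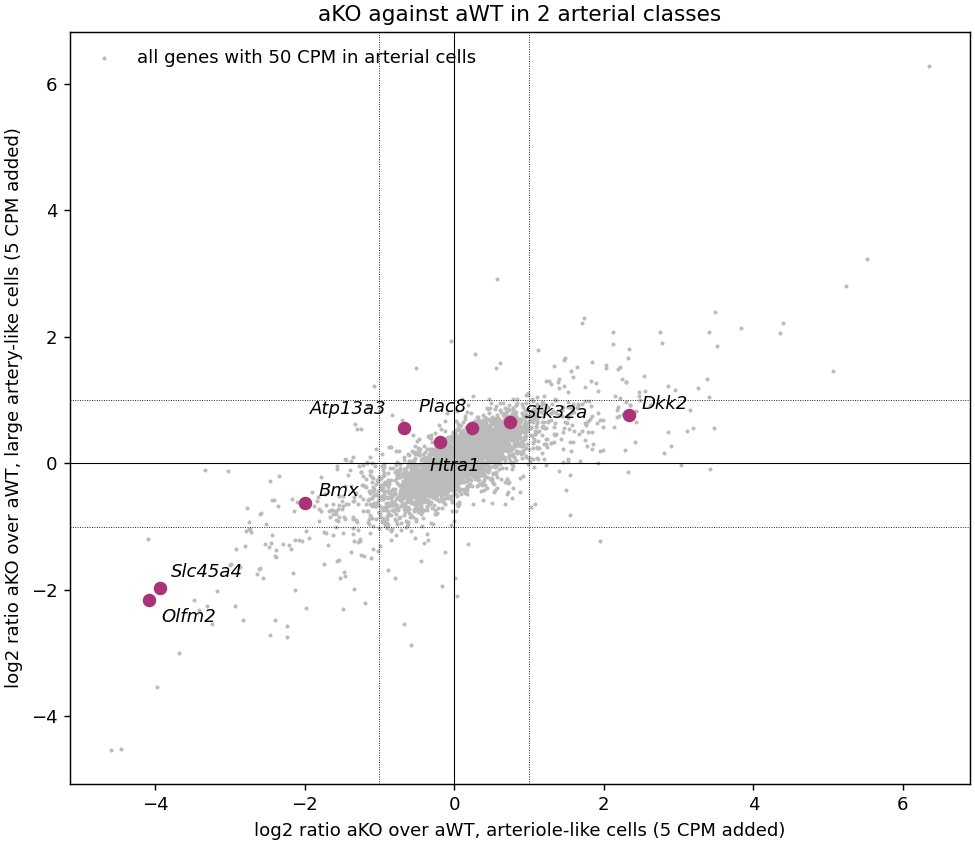
Each dot is 1 gene with at least 50 CPM in arterial cells; the x axis is its log2 ratio of aKO over aWT in arteriole-like cells and the y axis the same in large artery-like cells (5 CPM added), with dotted lines at 2-fold. Olfm2 (-4.08, -2.17) and Slc45a4 (-3.94, -1.97) lie together at the lower left, Bmx and Dkk2 differ mainly along x, and Atp13a3 lies left of 0 on x and above 0 on y.

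The arterial classes are ends of a range, so the cells of both were also cut into 5 bins by their large artery marker score, the mean log level of 10 markers that include Mgp, Eln and Vwf. Across the aWT bins Olfm2 was highest in the middle, at 169, 354, 578, 468 and 114 CPM from the lowest to the highest score. The aKO bins held 5.81, 7.28, 27.1, 52.9 and 20.9 CPM of it. Slc45a4 had the same shape in aWT, from 89.8 CPM through 246 CPM to 91.0 CPM, and lay between 8.16 and 19.4 CPM in every aKO bin. For Bmx both libraries climbed along the score, from 115 to 656 CPM in aWT and from 29.0 to 481 CPM in aKO, and the aKO level was the lower in each bin. Dkk2 was at most 4.98 CPM in the 3 lowest aWT bins, 27.3 CPM in the next and 119 CPM (106 to 134) in the highest, while the aKO bins held 52.2 to 177 CPM, with 177 CPM (165 to 190) in the highest. Htra1 ran closely alongside in both libraries, from 6.82 to 332 CPM in aWT and from 9.68 to 442 CPM in aKO. Plac8 peaked in the middle bin at 940.2 CPM in aWT against 993 CPM in aKO, and differed most in the lowest bin, at 160.3 CPM (135 to 189) against 534 CPM (473 to 601). In the highest bin aWT and aKO were close for Plac8 (234 and 239 CPM), Atp13a3 (195 and 199 CPM) and Stk32a (118 and 122 CPM). In the middle bin Atp13a3 stood at 1513 and 812 CPM and Stk32a at 359 and 474 CPM. The part of position along the score in the large artery-like class ratios of these genes was not tested. The bins hold 77 to 559 cells, and the score contains markers that are themselves lower in aKO, such as Vwf (2554 and 504 CPM in the middle bin), so equal scores need not be equal positions along the vessel.

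**Figure D3:**
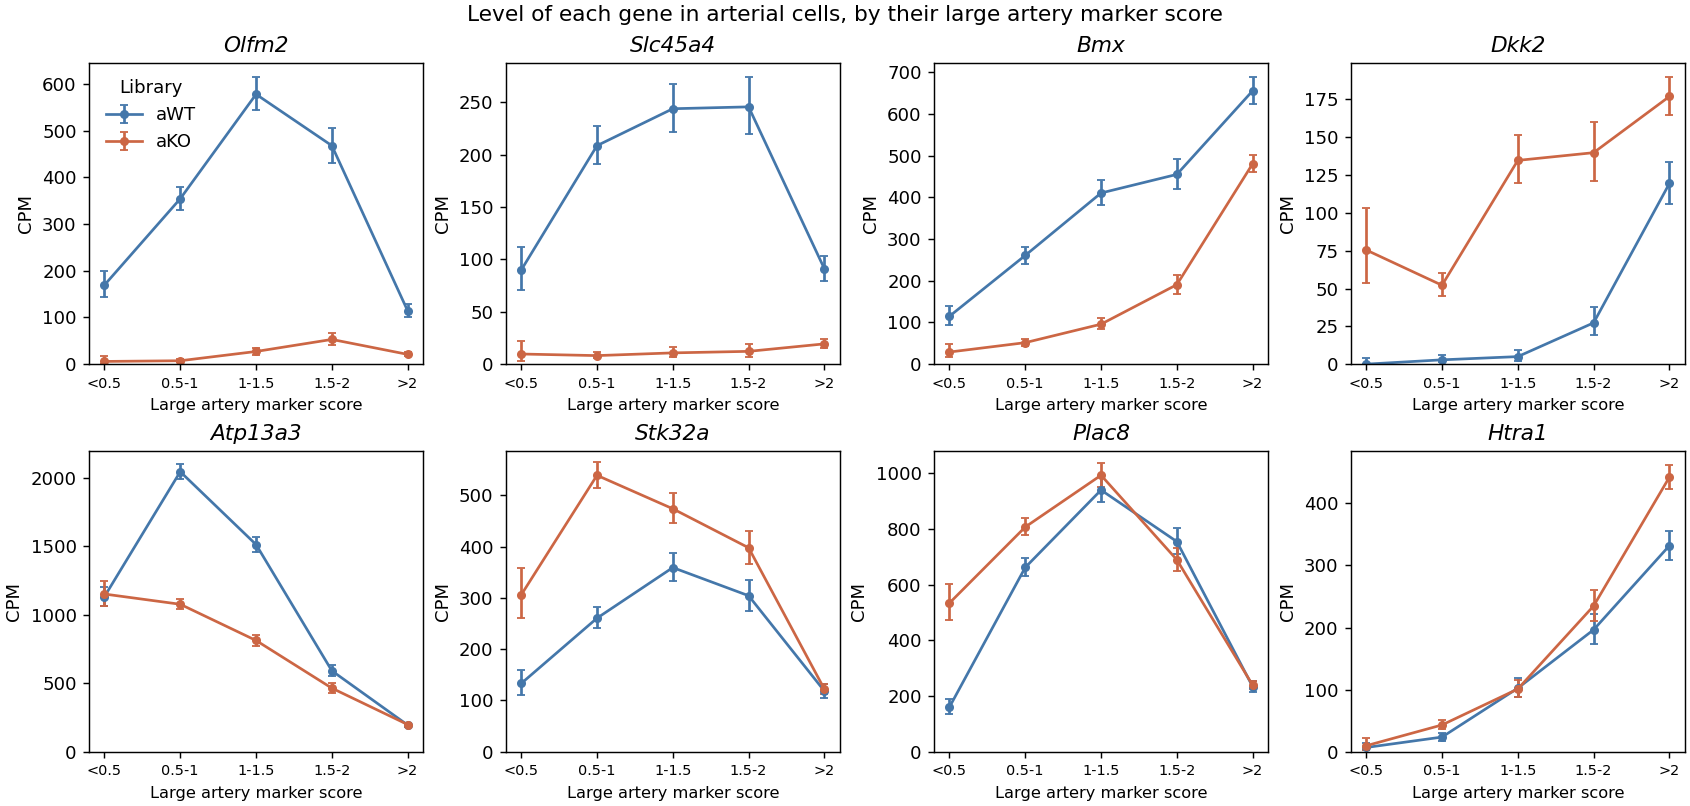
Level of each gene (CPM, linear axis from 0) in 5 bins of arterial cells ordered by large artery marker score (x axis), in the aWT (blue) and aKO (orange) libraries; error bars are exact Poisson 95% intervals and each point is the sum over the cells of 1 bin. Olfm2 and Slc45a4 form a hump in aWT and stay low in aKO, and Bmx, Dkk2 and Htra1 are highest in the bin of highest score in both libraries.

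Shares of cells were taken at 1 depth. After thinning each cell to 2000 UMIs and setting classes again, 39.7% of 1184 aWT and 2.98% of 537 aKO arteriole-like cells held an Olfm2 UMI, and before thinning 53.2% and 8.53%. Slc45a4 was seen in 296 of the 1184 aWT cells and in 12 of the 537 aKO cells, and Bmx in 36.9% and 12.8%. Stk32a was seen in 29.9% and 46.7%, and Plac8 in 51.3% and 64.8%. General capillary-like cells of aWT, thinned alike, held an Olfm2 UMI in 1.04% of 5885 cells and a Bmx UMI in 1.97%, and those of aKO an Olfm2 UMI in 0 of 1815 cells (exact 95% upper bound 0.20%). Atp13a3 was seen in 63.4% and 69.5% of arteriole-like cells, an order opposite to its CPM (1418 and 971 in the thinned cells), so no direction is read from its share. Htra1 was seen in 11.4% and 14.0%, the order of its CPM in thinned cells and the opposite of that in all cells, so its direction in arterioles is not given either. Thinning left out 179 aWT and 58 aKO arteriole-like cells for lack of depth.

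**Figure D4:**
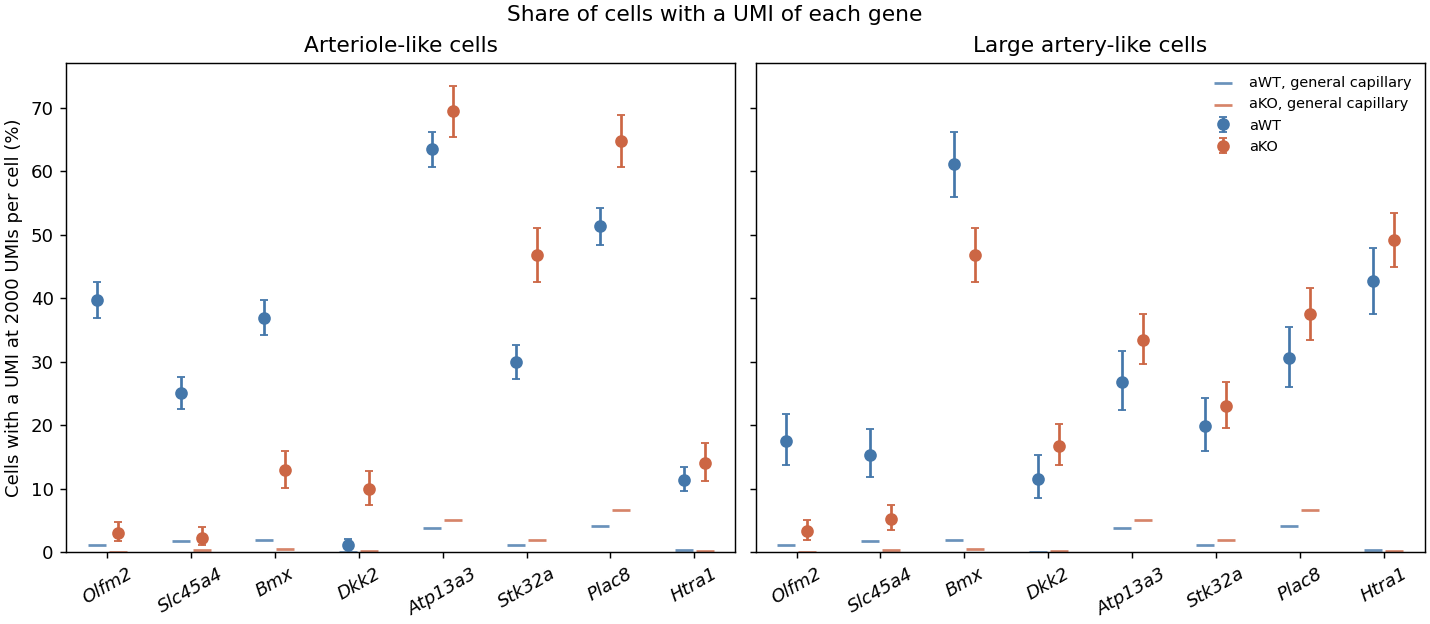
Percent of cells with at least 1 UMI of each gene (y axis, after thinning to 2000 UMIs per cell) in arteriole-like (left) and large artery-like cells (right) of aWT (blue) and aKO (orange); error bars are exact Clopper-Pearson 95% intervals and short lines mark general capillary-like cells of the same library. Olfm2 stands at 39.7% in aWT and 2.98% in aKO arteriole-like cells, while Stk32a stands at 29.9% and 46.7%.

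Within aWT arteriole-like cells at this depth, cells with Olfm2 more often held the other genes too. Of cells with an Olfm2 UMI, 38.3% also held Slc45a4, against 16.2% of cells without Olfm2. The pairs of shares were 48.9% and 29.0% for Bmx, 79.8% and 52.7% for Atp13a3, 68.5% and 39.9% for Plac8, and 20.6% and 5.32% for Htra1. The median cell held UMIs of 3 of the 8 genes in aWT and of 2 in aKO, and 17.5% of aWT and 6.52% of aKO cells held none. These are cells of 1 library each and not replicates.

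Across the 12 profiles of 6 classes in 2 libraries, the likeness of log2(CPM + 5) was described by Pearson's r, with no test, since profiles of a library share its depth and preparation. Olfm2 and Slc45a4 had r of 0.87 with each other, and Dkk2 and Htra1 had r of 0.93. Of 5863 genes, those most like Olfm2 were Strbp (0.96), Hs3st4 (0.96), a heparan sulfate sulfotransferase, and Esr2 (0.95), the estrogen receptor beta gene. Esr2 stood at 359 CPM in aWT against 87.1 CPM in aKO arteriole-like cells. Slc45a4 was most like Kcnq1ot1 (0.93), a long noncoding RNA, Notch1 (0.91), a receptor of arterial specification, and Ibtk (0.90). Bmx was most like Mgst1 (0.98), Pld1 (0.97) and Pdlim3 (0.97), and Dkk2 like Kcnn4 (0.99), a calcium-gated potassium channel, Plek2 (0.98) and Cenpt (0.97). Kcnn4 stood at 8.47 CPM in aWT against 57.9 CPM in aKO arteriole-like cells, and at 53.9 and 115 CPM in large artery-like cells. Htra1 was most like Enpp6 (0.97), Mgp (0.96), a matrix protein of large arteries that is also one of the class markers, and Tmem255b (0.96). The likest to Plac8 were Enah (0.96), Adgrg6 (0.95) and AU021092 (0.95), to Stk32a Spata13 (0.95), Fads3 (0.94) and Prnp (0.93), and to Atp13a3 Wdr45b (0.93), Tex2 (0.92) and Flrt2 (0.92).

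Gene lists around the 8 were described in the arterial cells of both classes together, where 4.10% of 4412 genes were 2-fold lower or more in aKO and 4.10% were 2-fold higher or more, with a median log2 ratio of 0.01. Large artery-like cells were 422 of 1751 of these cells in aWT and 552 of 1279 in aKO. The part of this mix in the pooled ratios was not tested. Of 27 measured arterial identity genes, 6 were lower and 2 higher, with a median of -0.39. This list shares genes with the class markers, so it is not independent of how the cells were chosen. Of the 6 lower genes, Cxcl12, Hey1, Gja4, Efnb2 and Edn1 are class markers and Nrp1 is not. Other lists hold some class markers too, such as Hey1 and Gja4 in that of BMP9 and ALK1. The largest ratios were those of the chemokine Cxcl12 (1458 and 180.1 CPM), the Notch target Hey1 (224 and 40.6 CPM), the Notch ligand Dll1, which was higher (52.2 and 209 CPM), and the VEGF and semaphorin co-receptor Nrp1 (798 and 220.5 CPM). Of 11 measured Wnt pathway genes around Dkk2, 1 was higher and 0 lower, with a median of -0.18. They include the receptor Fzd6 (47.3 and 110.2 CPM) and, under 2-fold, the Dkk2 co-receptor Lrp6 (151 and 88.4 CPM), the secreted inhibitor Sfrp1 (265 and 171 CPM) and the receptor Fzd4 (251 and 184 CPM). In large artery-like cells alone, 1 of 10 measured genes of this list was lower, Sfrp1 at 833 and 343 CPM, and 0 were higher. Fzd6 was under 2-fold there, at 91.7 and 137 CPM.

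Around Bmx, 7 genes of Tec kinases and their upstream signalling were measured and 1 was lower, the VEGF receptor Kdr (179.9 and 55.2 CPM), with a median of -0.51. Flt1 (1285 and 649 CPM), Pik3r1 (113 and 66.6 CPM) and Pik3ca (111 and 76.8 CPM) were under 2-fold. None of 4 measured polyamine genes around Atp13a3 passed 2-fold in either direction, with a median of -0.13. Their levels were 159 and 99.1 CPM for Oaz2, 459 and 704 CPM for Sat1, 235 and 153 CPM for Azin1, and 444 and 568 CPM for Oaz1. In arteriole-like cells alone, 5 genes of this list were measured, of which 1 was lower and 0 higher. Of all genes measured there, 5.05% were lower. Of 12 measured HtrA family and TGF-beta matrix genes, 2 were lower, the inhibitory SMAD gene Smad7 (793 and 152 CPM) and the SMAD repressor gene Skil (187 and 67.1 CPM), with a median of 0.17. Tgfb1 stood at 70.6 and 126 CPM.

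Genes known to respond to BMP9 and ALK1 were mostly lower, 11 of 16 measured with 1 higher and a median of -2.05, led by Id1 (1378 and 195 CPM), Id3 (1293 and 214 CPM), Smad6 (1343 and 232 CPM) and Id2 (374 and 65.5 CPM). None of 24 paralogs of the 8 genes reached 50 CPM in arterial cells as a whole. Taken by class, only Olfm1 did, at 53.9 CPM in aWT against 35.2 CPM in aKO large artery-like cells.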

How the data were processed

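Sorted tdTomato-positive lung cells of 2 libraries, aWT and aKO, were grouped by their sample titles. The deposited values are whole UMI counts of each gene in each barcode, not normalized. The submitters' processing notes name Cell Ranger 7.2.0 and mm10, and the labels' protocols the 10x 3' v3 kit. How introns were treated, and the annotation, is not given in the sources used here.

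Barcodes under 500 genes or over 15% mitochondrial UMIs were dropped and Scrublet calls removed (517 aWT, 349 aKO, expected rate set to 6%), which left 15134 and 10436 cells. An endothelial cell had UMIs of at least 4 of 10 endothelial markers and at most 2% of UMIs from epithelial and fibroblast markers. Its class was the highest of the standardized marker scores, leading by at least 0.25 SD. Arterial cells needed 3 of 17 markers. They were large artery-like when the large artery score exceeded the arteriole score by more than 1, both being mean log levels that were not standardized. In aWT 341 and in aKO 362 cells had the arterial score on top within the margin, and 118 and 180 arterial cells lay within 0.2 of the arteriole cut. The 8 genes, the lists and the markers were chosen with earlier results of these data known, and the scoring rule was set after clusters had been seen.

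CPM are UMIs summed over a class and scaled to a class total of 1000000, with exact Poisson intervals. Shares have Clopper-Pearson intervals, folds exact conditional binomial intervals, all at 95%. They cover counting error only. Log2 ratios add 5 CPM, which understates low genes. Genes with at least 50 CPM in 1 library counted as measured, and 2-fold as the size rule. Named genes were the 8, up to 4 of each of 7 lists by size of ratio, and the 3 likest to each. Library checks and markers were named besides. A result on 1 list gene is not reported here. The rule was tested on simulated data with counting error alone: in the arteriole comparison of 3998 genes it recovered 50 of 50 genes at 3-fold and at 4-fold in each direction and called 0 of 3798 unchanged genes. The changed genes were drawn from genes well above the 50 CPM minimum in aWT. Recovery of lower genes, and of differences with unevenness between cells or animals, was therefore not tested. Alternatives were TMM factors (edgeR 4.0.16), other pseudocounts and minimums, cell filters, doublets, thinning, markers and classes from clusters (leidenalg 0.10.2, scanpy 1.11.5, resolution 1.5, without the 8 genes). Python 3.11.15, numpy 2.4.6 and scipy 1.17.1 were used. Promoters came from RefSeq and coordinates from GENCODE M21.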

Additional observations from a re-analysis of the deposited data

Results flagged for a closer look

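Bmx had a log2 ratio of aKO over aWT above 0 in lymphatic-like cells (0.60) and below 0 in the other classes where it was measured, -1.99 in arteriole-like, -0.63 in large artery-like and -0.81 in venous-like cells, and also -0.84 in general capillary-like cells. The lymphatic-like ratio exceeded these by 2.59, 1.23, 1.41 and 1.44 in turn. Atp13a3 was below 0 in arteriole-like cells (-0.67) and above it in venous-like (1.25) and general capillary-like cells (0.74), differences of 1.92 and 1.41. These came up because the ratios of 1 gene had opposite signs in 2 classes. Within the lymphatic clusters the Bmx levels of aWT and aKO were close. They were 29.2 and 30.1 CPM in the one led by Mrc1, and 103 and 108 CPM in the one led by Lcn2. With 1 library a group the differences were not tested. In general capillary-like cells taken from clusters the Atp13a3 ratio was -0.24.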

How the results depend on the processing

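The ratios of the 8 genes were computed again under 13 settings, 11 planned and 2 added after the data had been seen. Of 312 ratios in arteriole-like, large artery-like and all arterial cells, 308 kept their sign. The 4 that did not were Plac8 in arteriole-like (-0.12) and all arterial cells (-0.03) and Htra1 in all arterial cells (-0.15) with classes from clusters, and Htra1 in arteriole-like cells when thinned (0.25). In arteriole-like cells log2 ratios ranged from -4.82 to -4.04 for Olfm2, -4.47 to -3.66 for Slc45a4, -2.55 to -1.79 for Bmx and 1.96 to 2.98 for Dkk2. The count of the 8 genes at least 2-fold higher in arteriole-like cells was 2, with Stk32a added, for the mean over cells and for thinning. With classes from clusters the count of the 8 called lower in large artery-like cells was 1, Slc45a4, since Olfm2 was past 2-fold (-1.12) but under the 50 CPM minimum. The count called higher there was 2, Dkk2 (1.69) and Plac8 (1.10), when arterial cells with other markers were left out, which kept 113 aWT and 212 aKO cells. Of all genes, a minimum of 20 CPM gave 363 higher in arteriole-like cells, 183 lower and 120 higher in large artery-like cells and 272 lower in all arterial cells. Leaving out cells with other markers gave 224 lower and 181 higher in large artery-like cells, and thinning gave 136 higher. The cause of these differences was not tested, beyond the lower minimum, which measures more genes. No paired analysis was possible because each group has 1 library. Levels under 1 CPM rest on few UMIs, such as 3 of Olfm2 in aKO general capillary-like cells.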
